A study of Mus musculus with 6 samples.

Results

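The regions described here are stretches of chromatin that were open enough to be called as peaks in every MMF-treated sample and in no control sample, once each sample had been given the same number of peaks, together with the genes they lie closest to. The cells were LSCs from a mouse leukemia driven by the MLL-AF9 fusion, labelled L-GMP cells (leukemic granulocyte-macrophage progenitors), of genotype WT and tissue Blood, and were grown with mouse IL3. Of the 6 samples, 3 were controls and 3 had been treated with MMF (mycophenolate mofetil), an inhibitor of inosine monophosphate dehydrogenase, for 24 h by the labels, and both groups came from the same kind of sorted cells. The study's methods and figure legends differ on the dose and the duration of this treatment. ATAC-seq, which marks open chromatin through the insertion of adapters by the Tn5 transposase, gave 1 list of peaks for each sample. The labels do not say whether the samples were separate cultures, so the spread between them may be technical.

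Members were chosen by measured values. Each list, restricted to chromosomes 1 to 19, X and Y, gave its 58496 peaks of highest −log10 p, which is the length of the shortest list (that of the third control). Peaks of all 6 lists were merged into 85874 regions. A region was called gained when it held a peak of all 3 MMF lists and of no control list, and lost in the opposite case. There were 2019 gained regions, or 2.35% of all regions, 1176 lost regions, and 35988 regions that held a peak of every list. Each region was assigned to the nearest start of a protein-coding gene, measured from the summit of its best peak. Because presence in the lists chose the regions, the counts of gained regions are a description of these samples and no test was applied to them.

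The lists ended at different strengths. The weakest peak kept had a −log10 p of 4.94, 5.07 and 3.01 in the control lists and of 9.58, 8.35 and 7.62 in the MMF lists, and the first peak dropped lay at 4.94 and 5.05 in the first 2 controls and at 9.58, 8.35 and 7.62 in the MMF samples. At the lowest background of each sample this corresponds to at least 6, 6 and 4 reads over the summit in the controls and 12, 9 and 9 reads in the MMF samples, so a region without a control peak had to stay below a lower bar than its MMF peaks had to pass. The lowest background, which scales with sequencing depth, was 0.729, 0.691 and 0.620 reads in the controls and 0.909, 0.706 and 0.676 reads in the MMF samples. The first MMF sample was the deepest and the other MMF samples overlapped the controls. Where no peak was listed, the number of control reads is unknown. In samples of many cells, a region that opened in more cells and one that opened further in each cell cannot be told apart.

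Enhancers are short stretches of DNA, often far from any promoter, that transcription factors open and bind, and a gene can be served by several of them at once. In myeloid cells PU.1 and the C/EBP factors open many such sites while granulocytes and monocytes mature, and RUNX and AP-1 factors act with them. The nearest start is a common stand-in for the target of an enhancer and is often wrong for distant sites, so the genes below are neighbours of gained regions and not shown to be controlled by them.

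All 4 markers of the MLL-AF9 program (Hoxa9, Meis1, Pbx3 and Myb) had a peak within 1000 bp of a start in every sample. Of 10 markers of granulocyte-monocyte progenitors, 6 to 8 had one in a given list and 4 in all 6, while Mpo and Prtn3, which encode proteins of primary granules and are defining for these progenitors, had none in any list. Of the 5 markers each of B cells, T cells, erythroid cells and stroma, between 1 and 2 had a peak in any list.

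The strongest gained regions are shown first, because their reference sequence can be compared with the motifs counted further on. They are the gained regions of highest mean −log10 p over the MMF lists that do not lie in an exon, with the 200 bases centred on the summit (GRCm38, plus strand). Capitals mark matches to short motifs of C/EBP (TTGCNNAA), PU.1 (GAGGAAGT), RUNX (TGTGGTT) and AP-1 (TGANTCA) on either strand.
Gimap9, chr6:48668104-48668303: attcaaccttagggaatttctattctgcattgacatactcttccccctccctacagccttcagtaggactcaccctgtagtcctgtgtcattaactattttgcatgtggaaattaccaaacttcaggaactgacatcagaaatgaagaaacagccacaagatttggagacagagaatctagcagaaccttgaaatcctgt
Ccr1, chr9:123931740-123931939: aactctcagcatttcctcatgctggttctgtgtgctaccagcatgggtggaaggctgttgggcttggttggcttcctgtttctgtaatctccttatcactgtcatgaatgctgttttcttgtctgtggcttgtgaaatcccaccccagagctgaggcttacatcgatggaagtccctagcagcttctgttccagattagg
Igf2r, chr17:12755106-12755305: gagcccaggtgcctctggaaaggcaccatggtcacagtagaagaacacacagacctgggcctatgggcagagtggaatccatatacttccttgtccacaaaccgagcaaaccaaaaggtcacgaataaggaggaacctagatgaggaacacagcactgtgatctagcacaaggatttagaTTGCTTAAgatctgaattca
Ank3, chr10:70009710-70009909: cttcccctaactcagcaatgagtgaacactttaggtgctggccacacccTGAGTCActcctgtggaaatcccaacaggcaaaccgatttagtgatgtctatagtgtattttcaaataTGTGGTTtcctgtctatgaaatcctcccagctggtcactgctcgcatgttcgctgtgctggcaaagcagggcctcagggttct

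The region 7.93 kb upstream of Gimap9, a GTPase gene of immune cells, was the strongest, with −log10 p values of 60.7, 46.6 and 40.0 in the MMF lists (mean 49.1 ± 10.6, SD, n = 3) from 55, 42 and 35 reads. No match to the 4 motifs was found in its window. The region 36.9 kb downstream of the start of Ccr1, a receptor for inflammatory chemokines, reached 63.3, 38.4 and 40.6 (mean 47.5 ± 13.8, SD, n = 3). Its reads were the more numerous, 162, 109 and 108, but its fold enrichment was only 5.25, 4.60 and 4.90, since the local background was high, against 19.7, 17.6 and 16.8 near Gimap9. The region in an intron of Igf2r, the receptor that carries mannose-6-phosphate-tagged enzymes to lysosomes, also lies within the antisense gene Airn. It had values of 35.6, 36.9 and 32.5 and a C/EBP match. The region in an intron of Ank3, an anchor of membrane proteins, had values of 31.4, 31.5 and 36.7 with a RUNX and an AP-1 match. All of these values lay far above the ends of the lists.

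Most gained regions were far weaker than those. The median −log10 p of the gained regions was 15.1, 12.9 and 11.6 in the 3 MMF lists, from a median of 19, 15 and 14 reads over the summit, whereas regions found in every list had medians of 34.0, 28.6 and 25.8. Between 86.2% and 87.8% of the gained regions lay below the middle rank of an MMF list. Lost regions were weaker still, with medians of 7.83, 7.62 and 7.62 in the 3 control lists, from a median of 10, 9 and 9 reads. Between 91.8% and 92.3% of the lost regions lay below the middle rank of a control list. Of the 2019 regions, 500 (24.8%) held a peak within 1 unit of −log10 p of the end of an MMF list. A weaker control peak, dropped to reach equal length, was overlapped by 289 (14.3%), and 42 regions were in both sets. Equal length cost the control lists 5415, 3594 and 0 peaks and the MMF lists 28060, 27669 and 22397. How many lost regions overlapped a dropped MMF peak was not counted. With all peaks of each list kept, 6771 regions were gained, which was 97.1% of gained plus lost regions. Just outside the rule lay 3055 regions with peaks in 2 MMF lists and no control list, and 2450 with peaks in 3 MMF lists and 1 control list.

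**Figure D1:**
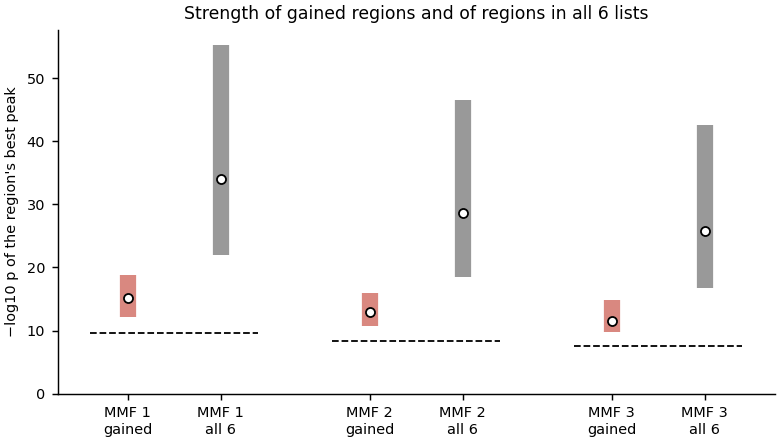
Strength of the regions in each MMF list. The vertical axis is the −log10 p of the best peak of a region, bars run from the lower to the upper quartile, circles are medians and dashed lines are the weakest peak kept. Gained regions, with medians of 15.1, 12.9 and 11.6, sit close above the end of each list, and regions found in every list lie well above them.

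Gained regions had a peak more often in an MMF sample left out of the calling than in a control left out. Each sample was left out in turn, regions were called from the other 5, and the list left out was then searched. The list length stayed at 58496, which the third control sets even when it is left out. Of the regions gained in the other 5 lists, 69.4%, 65.3% and 65.5% had a peak when MMF sample 1, 2 and 3 was left out (n = 2945, 3119 and 3103 regions), and 29.1%, 29.0% and 28.7% when a control sample was left out (n = 2848, 2845 and 2832). Every share for an MMF sample was above every share for a control. Among all regions the same shares ran from 64.2% to 66.1%, so the MMF shares were about those of any region and the control shares were well below them. Regions lost in the other 5 lists had a peak in 54.4% to 55.8% of cases in a control left out and in 33.3% to 35.0% in an MMF sample left out.

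Of 17307 genes with at least 1 region, 1577 had 1 gained region, 172 had 2, 30 had 3 and 2 had 4. The 32 genes with 3 or more were 0.304% of the 10519 genes with at least 3 regions, and the 204 genes with 2 or more were 1.50% of the 13591 genes with at least 2 regions. The last gene inside the limit was Trib1, with 3 of its 44 regions gained, and the first outside was Btbd19, with 2 of 3. The genes with 2 or more held 442 of the gained regions (21.9%).
A gene with many regions had more chances to collect gained ones. Of genes with 3 to 5 regions, 0.314% had 2 or more gained regions, and this rose to 14.1% of the 369 genes with 21 to 88 regions, although the share of regions that were gained was similar throughout, between 1.63% and 2.68%. The 32 genes had a median of 19 regions and a median territory of 335 kb (the bases nearer to their starts than to any other gene's), against 3 regions and 52.8 kb for all genes. The number of regions is therefore given beside each gene.

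**Figure D2:**
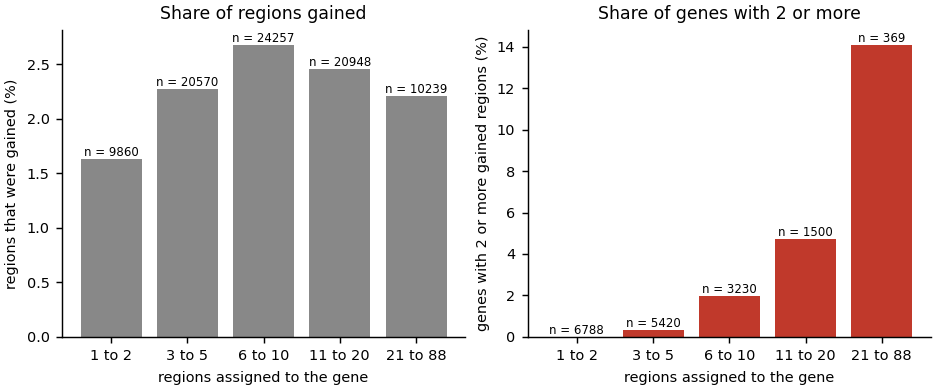
Gained regions by the number of regions assigned to a gene. The left bars give the percent of regions that were gained, between 1.63% and 2.68%, and the right bars the percent of genes with 2 or more gained regions, which reached 14.1% for genes with 21 to 88 regions (n above each bar is the number of regions or genes).

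Counted over all their regions, the 32 genes had more peaks in MMF than in control samples, as their choice requires. The mean number of regions with a peak was 12.5, 11.7 and 11.8 per gene in the controls and 15.5, 15.5 and 15.7 in the MMF samples. At 25 of the 32 genes every MMF sample held more than every control, where 4.39% of all genes did. Exceptions were genes with many regions, such as Uaca, with 23, 22 and 19 regions in the controls and 20, 21 and 19 with MMF, and Dad1, with 19, 17 and 17 against 24, 20 and 15. At 5 of the 32 genes (15.6%) a lost region stood beside the gained ones, against 6.30% of all genes, while 0.863% of their regions were lost, against 1.37% of all regions.

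**Figure D3:**
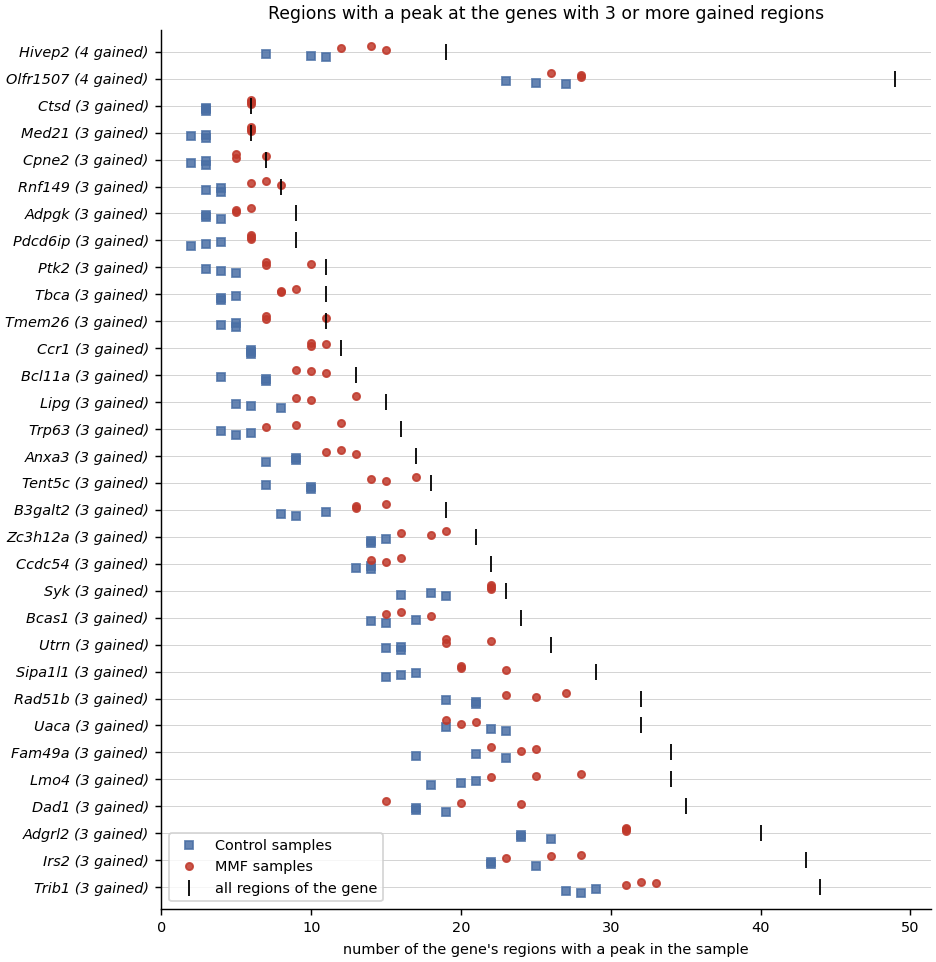
Regions with a peak in each sample at the 32 genes with 3 or more gained regions. The horizontal axis counts the gene's regions with a peak, squares are controls, circles are MMF samples and the black tick is the number of all regions of the gene. At Ctsd each control sits at 3 and each MMF sample at 6 of 6 regions, while at Uaca and Dad1 the groups overlap.

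Ctsd, the gene of the lysosomal protease cathepsin D, held the group that depended least on how the lists were made. It lies on chromosome 7 on the minus strand (142375911 to 142388038), and 6 regions were assigned to it. Each of the 3 control samples had a peak in 3 of them and each of the 3 MMF samples in all 6, so 3 of 6 sites were gained and none was lost. The gained sites lay 2.47, 10.2 and 15.8 kb upstream of the start, between genes, and their reference sequences are printed to show the PU.1 matches in the outer sites.
Ctsd, chr7:142398115-142398314: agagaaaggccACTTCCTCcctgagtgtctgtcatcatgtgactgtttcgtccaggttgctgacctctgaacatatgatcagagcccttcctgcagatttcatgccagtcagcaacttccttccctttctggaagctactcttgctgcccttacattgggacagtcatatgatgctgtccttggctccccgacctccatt
Ctsd, chr7:142390406-142390605: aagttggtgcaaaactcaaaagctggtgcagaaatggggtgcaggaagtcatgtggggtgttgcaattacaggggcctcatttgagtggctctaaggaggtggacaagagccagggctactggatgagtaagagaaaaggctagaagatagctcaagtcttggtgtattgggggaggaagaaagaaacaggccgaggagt
Ctsd, chr7:142403721-142403920: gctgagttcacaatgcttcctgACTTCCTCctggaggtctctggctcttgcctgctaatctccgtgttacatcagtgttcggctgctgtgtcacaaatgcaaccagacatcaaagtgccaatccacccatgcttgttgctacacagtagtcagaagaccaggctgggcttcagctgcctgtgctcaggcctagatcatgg
The site 10.2 kb upstream had −log10 p values of 33.7, 20.9 and 26.3, from 57, 39 and 43 reads. The site at 2.47 kb had 23.1, 23.3 and 19.8, from 46, 43 and 37 reads. The site at 15.8 kb had 20.6, 20.0 and 19.1, from 33, 31 and 29 reads. All 9 values were above the medians of the gained regions in their lists, and no control peak of any strength, dropped ones included, overlapped these sites. With the 40000 best peaks of each list, or with peaks ranked by fold enrichment, the count at Ctsd remained 3.

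Hivep2 encodes a large zinc finger protein that binds NF-kB-like sites, and it had 4 gained regions of 19. All 4 lay in introns of the gene, 17.5, 67.9, 89.2 and 136 kb downstream of the start on chromosome 10, and 3 of them held an AP-1 match. Those at 89.2 and 17.5 kb are shown, with the matches in capitals.
Hivep2, chr10:14055492-14055691: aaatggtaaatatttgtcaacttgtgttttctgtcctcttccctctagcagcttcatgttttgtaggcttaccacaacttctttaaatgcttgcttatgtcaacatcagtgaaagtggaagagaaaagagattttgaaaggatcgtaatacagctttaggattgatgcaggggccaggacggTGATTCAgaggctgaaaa
Hivep2, chr10:13983754-13983953: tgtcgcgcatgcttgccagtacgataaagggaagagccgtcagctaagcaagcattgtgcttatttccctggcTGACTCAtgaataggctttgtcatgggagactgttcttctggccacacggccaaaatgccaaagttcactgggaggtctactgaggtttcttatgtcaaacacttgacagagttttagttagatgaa
The site at 89.2 kb had −log10 p values of 18.2, 16 and 21.2, the one at 136 kb 11.9, 13.3 and 12.3, the one at 17.5 kb 13.2, 13.3 and 7.96, and the one at 67.9 kb 11.9, 8.35 and 8.52. The last of these had the value of the weakest peak kept in the second MMF list. The site at 89.2 kb overlapped a control peak that had been dropped. Controls had peaks in 11, 10 and 7 of the 19 regions and MMF samples in 15, 12 and 14, and with the 40000 best peaks of each list 1 gained region was left at Hivep2.

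Olfr1507, an olfactory receptor gene, had 4 gained regions of 49, and Dad1, which encodes a subunit of the oligosaccharyltransferase, had 3 of 35. Neither set lies in or near its gene. The 7 regions fall in the T-cell receptor alpha and delta locus on chromosome 14 (52427928 to 54224206), whose gene segments are not in the set of protein-coding starts, at distances of 385 to 714 kb from Olfr1507 and 463 to 681 kb from Dad1. The locus held 81 regions, of which 7 were gained (8.64%) and 2 were lost, with 44, 40 and 38 regions with a peak in the controls and 49, 46 and 39 with MMF. The receptor beta, kappa and lambda loci held 29, 17 and 8 regions with none gained, and the heavy chain locus held 127 with 1 gained.
Much of this locus exists in near-identical copies. The 50 bases at the summit occurred more than once in the genome for 5 of the 98 gained regions of the 32 genes, and these 5 were the 4 regions of Olfr1507 and 1 of Dad1. The other 93 occurred once. Copies that differ by a few bases are missed by this count, and the following windows show nearly the same sequence at 3 places of the locus, of which copy 3 differs enough for its central bases to occur once.
Olfr1507, copy 1, chr14:52880864-52881063: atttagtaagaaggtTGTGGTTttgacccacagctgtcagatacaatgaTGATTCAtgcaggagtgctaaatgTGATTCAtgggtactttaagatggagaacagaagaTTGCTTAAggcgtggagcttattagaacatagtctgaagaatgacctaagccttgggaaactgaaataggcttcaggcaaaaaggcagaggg
Olfr1507, copy 2, chr14:53191811-53192010: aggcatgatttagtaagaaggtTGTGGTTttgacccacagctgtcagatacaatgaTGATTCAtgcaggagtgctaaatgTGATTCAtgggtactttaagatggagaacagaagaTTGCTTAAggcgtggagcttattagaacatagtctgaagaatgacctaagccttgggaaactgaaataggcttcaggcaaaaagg
Dad1, copy 3, chr14:53582624-53582823: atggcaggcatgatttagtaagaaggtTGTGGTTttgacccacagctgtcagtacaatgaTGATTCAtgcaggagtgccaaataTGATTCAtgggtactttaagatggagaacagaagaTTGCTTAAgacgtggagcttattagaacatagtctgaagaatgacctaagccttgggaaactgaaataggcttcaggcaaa
Copies 1 and 2 were identical over 193 aligned bases, and copy 3 matched copy 2 at 192 of 195 and copy 1 at 185 of 188. Each holds a C/EBP, a RUNX and 2 AP-1 matches. Their −log10 p values were 18.2, 16 and 17.7 for copy 1, 11.9, 18.8 and 23.6 for copy 2 and 35.0, 19.8 and 24.3 for copy 3. Copies 1 and 3 overlapped a dropped control peak. Reads from such copies cannot be assigned to a single place with certainty, and how the aligner treated them is not given in the sources used here. Leaving out Olfr1507 and Dad1 gave 30 genes with 3 or more gained regions.

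Of the other transcriptional regulators, Med21, a subunit of Mediator, had 3 gained regions of 6, with 3, 2 and 3 regions with a peak in the controls and 6 in each MMF sample. Of its sites, those 1.76 and 3.94 kb upstream lie in an intron of the neighbour Tm7sf3, and the strongest, 36.3 kb downstream, had −log10 p values of 16.2, 20.4 and 13.9. Bcl11a, a zinc finger repressor of fetal globin, had 3 of 13, at 6.54, 31.3 and 291 kb downstream. Trp63, a p53 relative of epithelia, had 3 of 16, all at least 86.1 kb away. Lmo4, a LIM-only cofactor, had 3 of 34, at 33.4, 299 and 580 kb.

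Other genes act in signalling. Syk, a tyrosine kinase that acts below Fc receptors and integrins, had 3 gained regions of 23, all in its introns, 18.3, 22.8 and 31.9 kb downstream of the start. The first of these had −log10 p values of 15.6, 21.2 and 18.7 and a C/EBP match, the second 9.64, 12.6 and 8.35, and the third 19, 8.88 and 8.69. Controls had peaks in 19, 16 and 18 regions of Syk and MMF samples in 22 each, so most of the gene's sites were open in both groups. With the 40000 best peaks of each list none of the Syk sites remained gained.
Ccr1 had 3 gained regions of 12, within 14.2 kb of each other and downstream of its start. Besides the strongest, the sites 30.5 and 22.6 kb downstream of the start had −log10 p values of 17.9, 15.9 and 15.5 and of 14, 12.1 and 15.2, and both held a C/EBP match. Every control had peaks in 6 of its regions and the MMF samples in 10, 11 and 10.
Zc3h12a, an RNase that degrades inflammatory transcripts, had 3 of 21, at 4.38 kb downstream in an intron and at 16.6 and 30.4 kb upstream, the nearer ones with a C/EBP match. Controls had peaks in 14, 14 and 15 of its regions and MMF samples in 18, 16 and 19. Trib1, a pseudokinase that directs the breakdown of C/EBP alpha, had 3 of 44, at 1.98, 14.1 and 126 kb downstream, the first and last with a C/EBP match. Irs2, an adaptor of the insulin receptor, had 3 of 43, and Ptk2, the focal adhesion kinase, had 3 of 11. Fam49a, an inhibitor of Rac1 signalling, had 3 of 34, Sipa1l1, a Rap GTPase-activating protein, 3 of 29, and the adhesion receptor gene Adgrl2 3 of 40. Trib1 and Irs2 complete the 32 genes and lie outside the 30 that the rule named, so they were chosen after their values were seen.

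Further genes encode proteins of membranes and vesicles. Rnf149, a ubiquitin ligase of membranes, had 3 gained regions of 8, 1.25, 1.95 and 13.0 kb upstream, and the nearest had −log10 p values of 29.8, 18.2 and 17.7. Controls had peaks in 4, 3 and 4 of its regions and MMF samples in 8, 6 and 7. Cpne2, a calcium-dependent phospholipid-binding protein, had 3 of 7, with peaks in 3, 2 and 3 regions in the controls and 5, 7 and 5 with MMF. Pdcd6ip, the ESCRT partner ALIX, had 3 of 9, among them 1 of the 2 sites of the 32 genes that reached a promoter (within 1000 bp of a start), 0.810 kb upstream. The other promoter site belonged to Rad51b, a gene of homologous recombination, with 3 of 32. Anxa3, annexin A3 of neutrophils, had 3 of 17, of which the strongest, 31.6 kb downstream, had 23.3, 28.7 and 27.8. Tmem26, a membrane protein, had 3 of 11.
The remaining genes have varied functions. Adpgk, the ADP-dependent glucokinase, had 3 gained regions of 9, and all 3 held a RUNX match. Lipg, the endothelial lipase, had 3 of 15 packed into 8.77 kb, the shortest span of all. Tbca, a tubulin cofactor, had 3 of 11, Tent5c, a poly(A) polymerase, 3 of 18, and B3galt2, a galactosyltransferase, 3 of 19, the last at 321 kb or more from the start. Bcas1 had 3 of 24, with a strongest site of 28.0, 25.5 and 22.3, Utrn (utrophin) 3 of 26, Uaca 3 of 32 and Ccdc54 3 of 22.

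**Figure D4:**
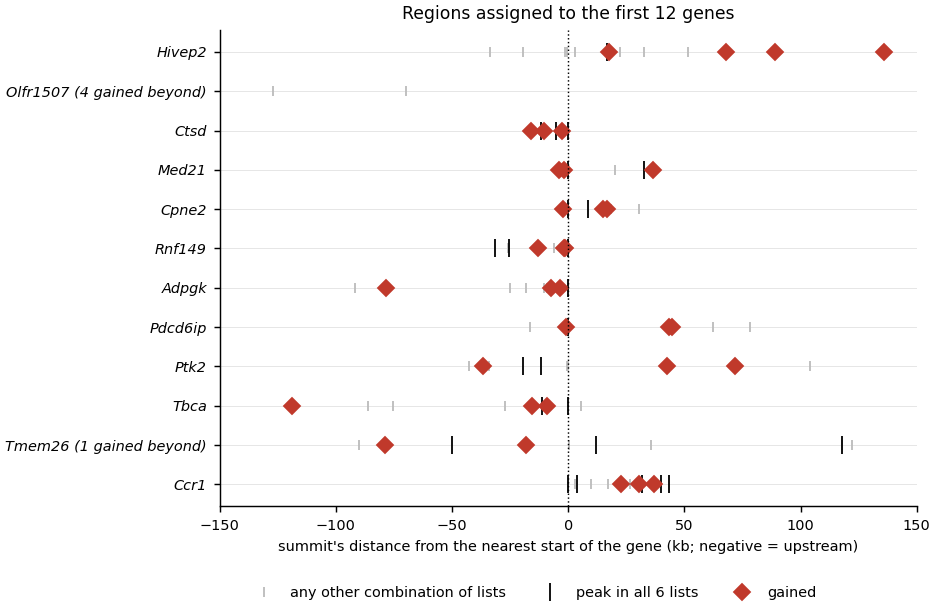
Regions assigned to the first 12 genes in the order of the number and share of gained regions. The horizontal axis is the distance of the summit from the nearest start of the gene in kb (negative is upstream), diamonds are gained regions, long black ticks have a peak in all 6 lists and grey ticks are any other combination. The gained sites of Ctsd lie 2.47 to 15.8 kb upstream and those of Ccr1 22.6 to 36.9 kb downstream, while all 4 of Olfr1507 lie beyond the plotted range.

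The gained regions of the 32 genes spanned a median of 126 kb (8.77 to 1062 kb), and 10 of the 32 genes held them within 50 kb. At 15 genes at least 1 pair had no other region of the gene between them. For the 172 genes with 2 gained regions the median span was 42.6 kb. A C/EBP match stood in at least 1 gained region of 23 of the 32 genes and in at least 2 regions of 9. The 9 include Olfr1507 and Dad1, whose matches lie partly in the near-identical copies. Of the 172 genes with 2 gained regions, 77 had a match in at least 1 and 16 in both. Over all gained regions 28.0% held a match, and a gene with more gained regions had more chances to hold one.

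Both the number of genes that passed the limit of 3 and which genes they were depended on the lists. With all peaks of each list 448 genes passed, 28 of them among the 32, and when 50% of a region had to be covered 97 passed, again with 28 of the 32. Leaving out 1 sample gave 62 to 89 genes, which held all 32, except that 23 of the 32 passed without control sample 3. With the 40000 best peaks of each list 23 genes had 3 or more gained regions, and 3 of them were among the 32 (Ctsd, Olfr1507 and Bcas1). With peaks ranked by fold enrichment 41 genes passed, 21 of them among the 32. Counting only regions within 100 kb of a start left 17 of the 32. Ctsd and Olfr1507 kept at least 3 gained regions under all 12 settings that change the regions, and no other of the 32 genes did.

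Gene lists of known function were set beside the background of 2.35% of regions gained and 1.37% lost. These lists describe neighbours of gained regions and carry no test. Highest was the list of erythroid, megakaryocyte and mast cell genes, with 7 of 99 regions gained (7.07%) and 3 lost (3.03%). Both shares lay above those of all regions. The gained regions stood 1 each at 7 of its genes. They included Cpa3, a carboxypeptidase of mast cells, with 1 of 2, Prg2, the eosinophil major basic protein, with 1 of 2, and Mcpt8, a protease of basophils, with 1 of 3. Peaks at this list numbered 61, 66 and 67 in the controls and 70, 65 and 65 with MMF, so the groups overlapped.
Genes that the study lists as raised by MMF in RNA, of which 33 of 39 matched the annotation, had 8 of 170 regions gained (4.71%) and 1 lost (0.588%), with 104, 105 and 103 peaks in the controls and 119, 117 and 120 with MMF. Mrgpra2b, a Mas-related receptor, had 2 of 4, both in its own introns, with 1 region with a peak in each control and 3 in each MMF sample. Ccl6, a myeloid chemokine, had 2 of 9, at 0.011 and 0.561 kb from a start in introns of the noncoding gene E230016K23Rik, with 5, 5 and 6 regions against 9 in each MMF sample. Serpine2, a protease inhibitor, had 2 of 10 and 1 lost region. Mogat2 and Thbs1 had 1 each. Both Mrgpra2b and Ccl6 belong to families of similar copies.
In guanine nucleotide and purine metabolism, 6 of 150 regions were gained (4.0%) and 3 lost. MMF blocks the synthesis of guanine nucleotides, which is only a part of what this list covers. Peaks of the list numbered 99, 92 and 94 in the controls and 100, 93 and 93 with MMF, so the groups overlapped. Adsl, adenylosuccinate lyase, had 2 of 9, with peaks in 3 regions in each control and in 9, 5 and 5 with MMF. One of its sites lies 46.2 kb away in an exon of Tnrc6b. Gda, guanine deaminase, had 2 of 14, and Ampd3 and Nt5c2 had 1 each.
Chemokines and chemoattractant receptors had 7 of 185 gained (3.78%) and 1 lost (0.541%). The gained ones lay at Ccr1, Ccl6, Fpr1 and Ltb4r1. Peaks of the list numbered 124, 128 and 127 in the controls and 138, 134 and 134 with MMF. Cytokine and growth factor receptors had 9 of 291 gained (3.09%) and 2 lost (0.687%). The gained regions were 1 each at 9 genes such as Csf2rb, Il10rb, Tnfrsf1a, Il15ra and Il1rap. Csf2rb is the shared beta chain of the receptors for IL3, IL5 and GM-CSF. Peaks numbered 181, 188 and 196 in the controls and 204, 199 and 196 with MMF.
Phagocyte signalling proteins had 16 of 533 gained (3.0%) and 9 lost (1.69%). Besides Syk, Arhgap26 had 2 of 25, Elmo1, a partner of DOCK proteins in engulfment, 2 of 40, and Rgs1 1 of 9. Peaks numbered 342, 346 and 347 in the controls and 382, 376 and 370 with MMF. Feedback inhibitors of signalling had 10 of 350 gained (2.86%) and 3 lost (0.857%). The gained ones included 2 each at Cblb, a ubiquitin ligase of kinases, Nfkbia, the inhibitor of NF-kB, and Zfp36l1, an RNA-decay factor. Dusp5 and Dusp1 had 1 each.
p53 targets had 5 of 157 gained (3.18%) and 3 lost (1.91%). Mdm2, the ligase that degrades p53, had 2 of 9, at 6.95 kb upstream and 25.9 kb downstream in an untranslated exon of Cpm, with 5, 6 and 5 regions with a peak in the controls and 8, 7 and 8 with MMF. Gadd45a, a growth arrest gene, had 2 of 16, 1 of them in its own transcript 1.62 kb from the start, and Bbc3 had 1 of 8. The peaks of the list, however, numbered 115, 111 and 111 in the controls and 117, 115 and 105 with MMF.
Other lists were near or below the background of gained regions. Lymphoid genes had 3 of 141 (2.13%) gained and as many lost, with Gata3 at 2 of 19, at 737 and 1203 kb, and Ncr1 at 1. The integrated stress response had 2 of 97 (2.06%), at Asns and Slc7a11, and 1 lost (1.03%). Myeloid transcription factors had 11 of 645 (1.71%) and 5 lost (0.775%). The gained ones included 2 each at Jun and Maf and 1 each at Egr1 and Bcl6. Pattern recognition and immunoreceptors had 4 of 278 (1.44%), at Trem1, Cd36, Fcgr2b and Tlr4, and 3 lost (1.08%). Granule and secreted neutrophil proteins had 2 of 141 (1.42%), at Pglyrp1 and Ctsc, and none lost. The MLL-AF9 and progenitor program had 5 of 436 (1.15%) gained and 6 lost (1.38%). Gata2, Cd34, Myb, Bcl2 and Sox4 had 1 gained region each. Adhesion and migration receptors had 0 of 258 gained and 2 lost (0.775%), and the NADPH oxidase had 0 of 36 gained and 1 lost (2.78%).
Summed over a list, the number of regions with a peak was higher in every MMF sample than in every control for 7 of the 16 lists. These were the lists of chemokines, phagocyte signalling, feedback inhibitors (222, 219 and 239 in the controls, 244, 250 and 253 with MMF), granule proteins (91, 101 and 93 against 102, 103 and 105), pattern recognition (199, 193 and 192 against 210, 206 and 209), the stress response (62, 64 and 58 against 68, 68 and 65) and the genes raised in RNA. It was lower in every MMF sample for lymphoid genes (92, 94 and 87 against 84, 81 and 86) and overlapped for the other 8 lists. Over all genes the groups were also apart, by less, with means of 3.27, 3.27 and 3.26 regions with a peak per gene in the controls and 3.32, 3.29 and 3.29 with MMF. Of 17307 single genes, 759 (4.39%) were higher in every MMF sample and 519 were lower. The sums of a list include its gained regions, so part of a difference is built in by the rule. How often other lists of like size come apart was not counted.

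Gained regions lay away from promoters. A promoter was overlapped by 89 of the 2019 (4.41%), against 12.8% of lost regions, 30.3% of regions found in every list and 17.4% of all regions. By summit, introns held 53.5% of them and intergenic sequence 40.8%, close to the 48.7% and 40.6% of all regions. The median distance to a start was 21.6 kb, against 20.3 kb for lost regions and 17.1 kb for all, and 14.6% of gained regions lay beyond 100 kb. About as many lay near a stable site as away from one, with 51.3% within 10 kb of a region found in every list (42.8% of lost regions). Every chromosome but Y contributed, between 1.95% of the regions of chromosome 2 and 2.93% of those of chromosome 18, and chromosome Y had 0 of 137.
Their sequence was poorer in G and C. The median content of the 200 bases was 46% in gained and 51% in lost regions, against 50% in all, with a median of 2 CpG dinucleotides against 3 in both others. A mean of 14.2% of the bases were marked as repeats, against 20.4% in lost and 15.4% in all regions.

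The C/EBP motif was the most frequent of 12 short motifs in gained regions. However, the motifs differ in how many bases they fix, so shares of different motifs are not comparable. Shares of the same motif in different kinds of region are. A match to TTGCNNAA stood in 566 of the 2019 windows (28.0%, 95% Wilson interval 26.1% to 30.0%), in 6.89% of lost regions (5.58% to 8.48%), in 14.8% of regions found in every list and in 14.9% of all regions. The intervals cover counting error only, and lost regions rested on fewer reads than gained ones. More peaks had been dropped from the MMF lists than from the control lists, and lost regions may overlap dropped MMF peaks. At the 32 genes 33 of 98 regions held one (33.7%, 25.1% to 43.5%). Among them were 3 regions of Olfr1507 and 2 of Dad1, partly near-identical copies, which the interval counts as separate regions. Since the motif is rich in A and T, the share was also taken within bands of G and C content away from promoters. Below 42% it was 38.2% in gained, 8.73% in lost and 24.0% in all regions, between 46% and 50% it was 26.3%, 7.35% and 17.6%, and from 55% up it was 15.6%, 4.71% and 8.83%. In each of the 5 bands the order was gained, then peaks in all 6 lists, then all regions, then lost, and between 42% and 46% gained regions (27.6%) were close to those in all 6 lists (25.6%).
The motif of PU.1 (GAGGAAGT) stood in 9.06% of gained, 5.02% of lost and 8.30% of all regions, and that of RUNX (TGTGGTT) in 13.2%, 9.35% and 10.8%. That of AP-1 (TGANTCA) went the other way, with 14.7%, 19.6% and 16.5%. A C/EBP or a PU.1 match stood in 35.4% of gained and 11.4% of lost regions, and both in 35 gained regions. The part of the CTCF motif searched (CAGNNGGCG), whose factor holds chromatin loops, was found in 13 gained regions (0.644%) against 6.12% of lost and 5.55% of all. Between 46% and 50% G and C, away from promoters, it was 0.370%, 2.45% and 2.65%. KLF (CCACNCCC) stood in 5.30%, 10.1% and 9.37%, NF-Y (CCAATCA) in 2.08%, 2.64% and 3.75%, and the E-box (CACGTG) in 3.27%, 4.25% and 4.83%. IRF (GAAANNGAA) stood in 7.88% of gained, 6.04% of lost and 6.45% of all regions, STAT (TTCNNNGAA) in 5.65%, 5.87% and 6.27%, NF-kB (GGANNTTCC) in 2.38%, 2.55% and 2.55%, and AGATAAG, the site of erythroid GATA factors, in 1.58%, 2.89% and 1.85%. A match is a run of letters and does not show that a factor was bound.

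**Figure D5:**
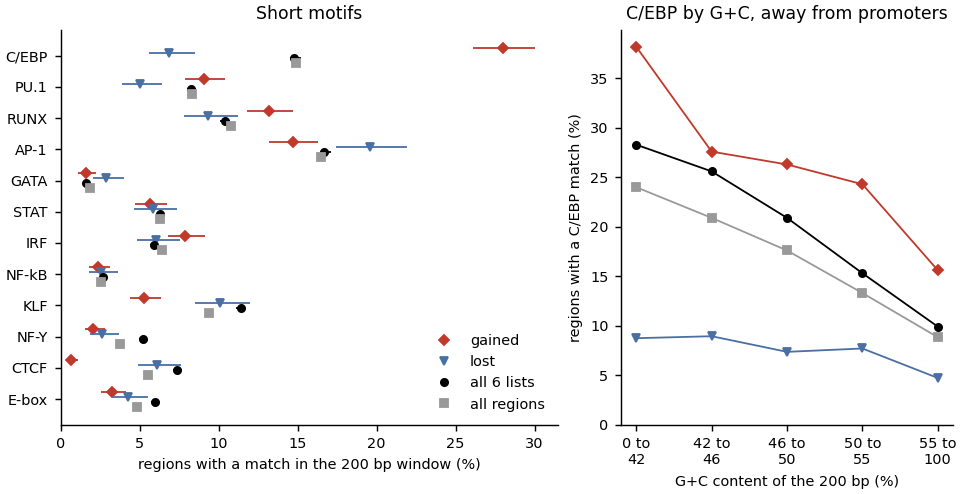
Short motifs in the 200 bp centred on the summit. On the left the horizontal axis is the percent of regions with a match, with 95% Wilson intervals, for gained, lost, all-6 and all regions, and C/EBP stands apart at 28.0% in gained and 6.89% in lost regions. On the right the share with a C/EBP match is drawn by G and C content away from promoters, where gained regions are highest and lost regions lowest in each band.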

How the data were processed

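Open chromatin was profiled by ATAC-seq in LSCs, with 3 samples in each group. The authors trimmed reads (Trim Galore), aligned them with Bowtie2 against mm10, which is GRCm38, and ran MACS2 separately for each sample. Versions and options are not given in the sources used here. For each peak the authors deposited a fold enrichment, which is a ratio of summit reads to local background, (reads + 1) / (background + 1), and a −log10 p and −log10 q. Whole reads and background solved from fold enrichment and p gave back the −log10 p, within 0.0001 of its value, for 100% of the peaks kept. Total reads per sample are unknown.

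Each list was restricted to chromosomes 1 to 19, X and Y and to its 58496 peaks of highest −log10 p. Peaks tied at the end of a list were taken in file order (3188 others were tied with the weakest peak kept in the first control and 2828 in the second MMF sample). Overlapping or touching peaks were merged and a sample had a region at an overlap of 1 bp. Starts were those of protein-coding transcripts of the GENCODE M21 basic annotation, and a promoter was 1000 bp on either side. Motifs were searched for on either strand of the 200 bp centred on the summit, and matches to different motifs may overlap. The genome was read with pysam 0.24.0, copies were aligned with Biopython 1.88, and Python 3.11.15, pandas 2.3.3 and scipy 1.17.1 were used. The steps were tested on simulated data. At most 681 peaks had the same start and end in any 2 lists.

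The members, the 16 gene lists and the motifs were chosen with earlier results of these data known. Text names the 30 genes with most gained regions (ties by the share of regions gained), up to 5 genes of each list with most gained regions, and the 5 gained regions of highest mean −log10 p. Some members of the lists are not reported here. Sequences shown are a selection from the strongest and from the first genes, and 1 copy at Dad1. The PePr analysis of reads was not repeated. No test was applied. Counts of gained regions and of peaks use the contrast that chose the regions. Sequence and position were not used by the rule, but regions are not replicates.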

Additional observations from a re-analysis of the deposited data

How the results depend on the processing

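Of the 2019 gained regions, 63.2% of gained plus lost regions, 32 genes, 28.0% with a C/EBP match, 4.41% at promoters and a median distance of 21.6 kb, several values moved beyond their counting error. Ranking by fold enrichment gave a gained share of 61.5%, 2.90% at promoters and a median distance of 28.1 kb. The 40000 best peaks gave a gained share of 61.4% and 25.3 kb. All peaks of each list gave 6771 gained regions, a share of 97.1%, 448 genes, 23.5% with a C/EBP match and 26.7 kb. Asking for 50% of a region to be covered gave 3323 gained regions, a share of 75.6% and 97 genes. Gene record starts moved the distance to 25.9 kb, a reach of 100 kb left 17 genes, a motif window of 500 bp gave 40.1% and a promoter of 500 bp on either side 1.78%. Gained regions stayed the majority of gained plus lost regions throughout. However, the control lists reached weaker peaks. There were 10866 regions in 1 control list and no MMF list, against 7438 in 1 MMF list and no control list. Whether this difference shaped the majority was not tested. Leaving out 1 sample asks for fewer lists, so counts rise: 2845 to 3119 gained regions (the highest without MMF sample 2 or 3, 3119 and 3103), a share of 56.7% to 63.6%, 62 to 89 genes whichever sample was left out, 25.6% to 26.8% with a C/EBP match, 4.29% to 5.42% at promoters and 21.6 to 22.9 kb. All 32 genes stayed at 3 or more without any one of 5 samples, where the length was unchanged and gained regions could hardly drop out. Without control sample 3, whose short list sets the length, 23 of them did. Both ways of taking tied peaks, and leaving out the T-cell receptor alpha and delta locus, were added after seeing the data. They gave 2025 and 2030 gained regions and 30 or 32 genes. With tied peaks taken from the end of the list first, 30 of the 32 genes passed, without Tmem26 and Irs2. With all tied peaks kept, 29 of them passed, without Ptk2, Adgrl2 and Irs2. Gained regions of the 89 named genes stayed within 1.5 times their value in 895 of 1068 cases. These cases pool all 12 settings, among them samples left out at unchanged length, where a count could hardly fall, and the handling of ties. The pooled share is therefore no measure of stability. With the 40000 best peaks 3 of the 32 genes passed, and with fold enrichment 21. No paired analysis was made, as the labels do not say whether a control and an MMF sample of the same number belong together. Summits of 14 to 19 reads limit what single weak regions can show.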

Other observations

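Outside the genes with 3 or more, several genes with few regions had a large share of them gained. They were chosen after their values were seen. Btbd19 had 2 gained regions of 3, and Cyb5r4, a reductase of the endoplasmic reticulum, Lpar3, a receptor for lysophosphatidic acid, Mtx2, an import protein of mitochondria, and Otoa had 2 of 4 each. Slc2a3, the glucose transporter GLUT3, Mgmt, a DNA repair enzyme, and Ccna1, cyclin A1, had 2 of 5 each, and Bcl10, an adaptor of NF-kB signalling, and Car4, a membrane carbonic anhydrase, 2 of 6 each. None of these genes had a lost region.

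The fourth strongest gained region by −log10 p lies in an exon of Gm11168 at the start of chromosome 9, at chr9:3006363-3006514. All of its 200 bases are marked as repeats and the 50 bases at its summit occur 13 times in the genome. Its −log10 p was 43.7, 27.2 and 29.9 from 465, 345 and 341 reads, but its fold enrichment was only 2.05, 1.90 and 1.98. It is reported as a value only.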
